A study of Mus musculus with 4 samples.

Results

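Guanylate-binding proteins are a family of large GTPases. The genes Gbp2, Gbp3, Gbp4, Gbp5, Gbp6, Gbp7, Gbp8, Gbp9, Gbp10 and Gbp11 were taken by name, which gave 10 of the 23990 gene symbols in the tables. All 10 had a value above 0 in each library. They were followed in effector CD4 cells (CD44+CD4) of wild type C57BL/6 mice (C57BL/6J per the methods of the study) with experimental autoimmune encephalomyelitis (EAE), a mouse model of multiple sclerosis. Per these methods, EAE was induced with a MOG peptide in complete Freund's adjuvant and pertussis toxin, and cells were sorted at disease onset. They came from the spinal cord (CNS) or from draining lymph nodes that had been pooled (dLN). The methods also state that sorted cells were stimulated with PMA and ionomycin, which the labels do not mention. Each tissue had 2 libraries. The labels give neither the age of the mice nor whether the replicates came from separate animals, so the p-values measure only the spread between these libraries.

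Most members of this family are induced by interferons. The proteins bind GTP, assemble on the membranes of vacuoles that hold bacteria or parasites, and help to set off inflammasomes. In EAE, CD4 cells are a main source of interferon-gamma, the classical inducer of the family.

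The authors deposited FPKM (fragments per kilobase, relative to all mapped fragments of the library) per RefSeq transcript of mouse build mm10, and values were summed per gene. The depth, estimated from the steps between low FPKM values, came to 20.8 M and 21.5 M fragments in CNS replicates 1 and 2 and to 18.4 M and 21.7 M in dLN replicates 1 and 2. Between 90.6% and 93.8% of low values then came within 0.05 of a whole number of fragments, where evenly spread values give 10%. The depth was picked on these same values, with 153 to 195 bases taken off the transcript lengths. The share of 10% does not allow for this choice. Across genes, which are not independent replicates, log2 values had a Pearson correlation of 0.976 between the CNS libraries and 0.986 between the dLN libraries.

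The sorted cells carried the transcripts that define CD4 T cells. Cd4 was at 502 and 531 FPKM in CNS and at 82.0 and 66.7 FPKM in dLN. Cd44, also a marker of the sort, went the other way, at 112 and 112 FPKM in CNS and 176 and 157 FPKM in dLN. Markers of other cells were also read, mostly in CNS replicate 2, and are given further on. Transcripts linked to sex also followed the tissue. Ddx3y, on the Y chromosome, was at 12.7 and 11.2 FPKM in CNS and listed at 0 in both dLN libraries. Xist was at 0 and 0.0026 FPKM in CNS, against 26.6 and 22.3 FPKM in dLN. Eif2s3y, at 44.7 and 34.7 FPKM in CNS, Kdm5d and Uty were likewise listed at 0 in both dLN libraries. Tissue, the sex of the mice and the mice themselves therefore cannot be told apart here. This holds for each CNS over dLN ratio given below. In these bulk samples, fewer cells of a type and less RNA per cell cannot be told apart either.

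The members lie in 2 gene clusters. Gbp5, Gbp7, Gbp3 and Gbp2, in this order, lie on the plus strand of chromosome 3, and the other 6 lie on the minus strand of chromosome 5. The promoters were searched for a pair of DNA elements known from interferon signalling. The interferon-stimulated response element (ISRE, GAAANNGAAA) is bound by interferon regulatory factors. The gamma-activated site (GAS, TTCNNNGAA) is known from promoters that interferon-gamma switches on. A promoter here is the window of 300 bases from 250 before to 50 after a transcription start, from RefSeq on GRCm38.p6 (mm10). Windows were present for 4 of the 10 members, with 2 for Gbp3. Gbp4, Gbp6, Gbp8, Gbp9, Gbp10 and Gbp11 had no entry. The promoters of Gbp2, of Gbp7 and of Gbp5 and the first of Gbp3 are shown because these genes, all in 1 cluster, range from a member called with one of the larger ratios (Gbp7) to one that was not called (Gbp5). Each is on the plus strand, 5′ to 3′, with the bases that match either element on either strand in capitals.
Gbp2 promoter chr3:142620413-142620712: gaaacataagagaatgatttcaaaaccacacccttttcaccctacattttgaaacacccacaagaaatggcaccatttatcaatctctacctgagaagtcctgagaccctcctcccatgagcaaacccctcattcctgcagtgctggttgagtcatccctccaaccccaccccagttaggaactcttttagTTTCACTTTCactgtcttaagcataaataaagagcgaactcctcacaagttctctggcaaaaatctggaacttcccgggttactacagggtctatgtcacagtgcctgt
Gbp3 promoter chr3:142559794-142560093: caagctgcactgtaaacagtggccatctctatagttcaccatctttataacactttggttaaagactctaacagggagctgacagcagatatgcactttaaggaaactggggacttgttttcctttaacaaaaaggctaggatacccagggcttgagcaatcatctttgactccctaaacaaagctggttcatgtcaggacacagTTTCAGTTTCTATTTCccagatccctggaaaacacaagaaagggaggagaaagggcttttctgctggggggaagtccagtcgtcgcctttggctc
Gbp7 promoter chr3:142530086-142530385: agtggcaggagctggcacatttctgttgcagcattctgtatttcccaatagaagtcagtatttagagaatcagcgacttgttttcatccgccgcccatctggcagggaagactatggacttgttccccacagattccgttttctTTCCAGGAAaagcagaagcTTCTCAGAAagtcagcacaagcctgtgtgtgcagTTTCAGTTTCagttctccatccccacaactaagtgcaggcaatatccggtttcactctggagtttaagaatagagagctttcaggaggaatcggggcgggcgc
Gbp5 promoter chr3:142496684-142496983: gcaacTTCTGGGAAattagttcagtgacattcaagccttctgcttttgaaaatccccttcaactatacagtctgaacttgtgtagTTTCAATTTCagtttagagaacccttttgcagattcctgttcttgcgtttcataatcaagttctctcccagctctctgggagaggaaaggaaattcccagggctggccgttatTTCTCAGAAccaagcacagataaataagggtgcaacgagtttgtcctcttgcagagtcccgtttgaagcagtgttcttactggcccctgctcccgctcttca

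The ISRE letters were in 4 of the 5 member promoters, against 3.44% of 32851 promoters in the table. They began 59 bases before the start in Gbp2, 53 in Gbp7 and 165 in Gbp5. In Gbp3, a pair of overlapping matches began 45 and 39 bases before the start, and the other Gbp3 window had no match. The Gbp3 transcript with 95.1% to 98.9% of the FPKM of that gene began at position 142560496, downstream of both windows. The GAS letters were in 2 of the 5 promoters, those of Gbp5 and Gbp7 with 2 matches each, against 8.30% of all promoters. No GAS match overlapped an ISRE match in the sequences shown. The promoter of Gbp2b, also named Gbp1, a related gene outside the 10, held 1 ISRE match. Gbp5, which was not called, and Gbp7, which was, each held 1 ISRE and 2 GAS matches. The windows come from neighbouring, related genes and are not independent of each other. A match is a description of letters, and binding was not tested.

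Gbp2, which is recruited to vacuoles that hold Toxoplasma, was the most abundant member in both tissues. It was at 105 and 125 FPKM in CNS and at 45.4 and 42.5 FPKM in dLN. Both CNS libraries lay above both dLN libraries, by 2.62-fold on mean FPKM. The difference was tested with limma on log2(FPKM + 1) over 10634 genes, those whose mean reached 1 FPKM in CNS, in dLN or in both, and p-values were adjusted by the Benjamini-Hochberg method with a threshold of 0.05. On this scale the change of a low gene comes out smaller than on FPKM. The log2 ratio of CNS over dLN was 1.36 (SE 0.11) for Gbp2, with an adjusted p of 0.000411 in limma. Of the 10 members, 9 reached this minimum and were tested, each of them in both tissues. Of these, limma called 8 higher in CNS and 0 lower, and 0 were lower at an unadjusted p under 0.05 as well. Among all genes tested, 37.8% were called higher in CNS, 37.2% lower and 74.9% in either direction. Counts of calls in the lists further on stand against these shares where they come from this fit over all genes tested. With no minimum, 8477 of 16782 genes were called, 51.3% of these higher in CNS. With a minimum of 5 FPKM, 6518 of 8141 were called, 47.8% of these higher. No share over all genes is given for genes that reached the minimum in both tissues or for fits with a library left out. With 2 libraries per tissue, an exact permutation test of a single gene cannot go below p = 0.333 (two-sided), so the calls rest on the spread that limma pools over genes.

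**Figure D1:**
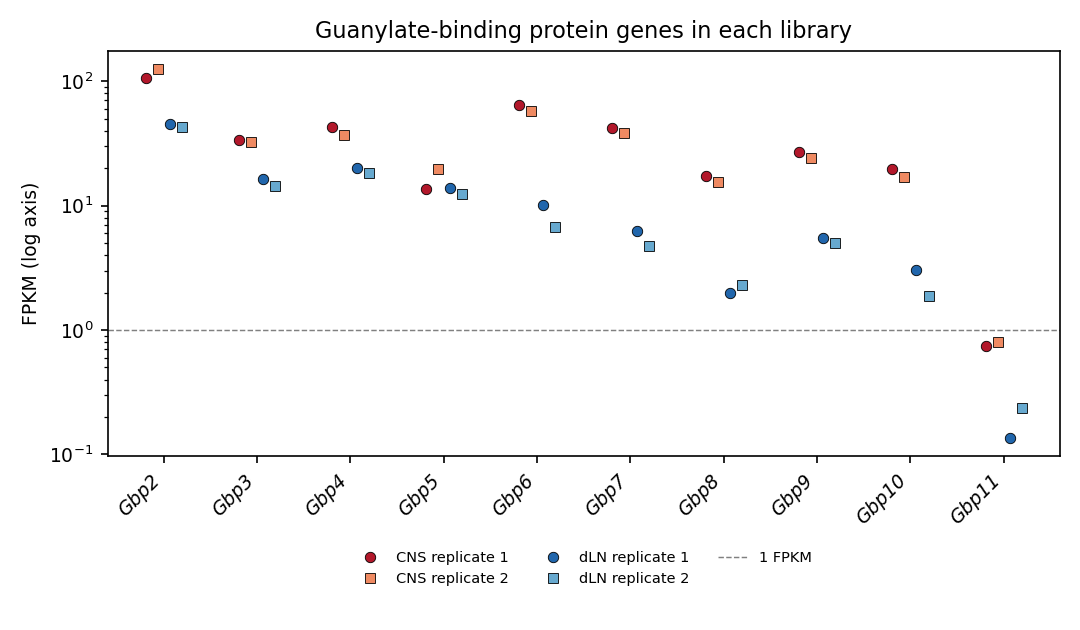
Level of each guanylate-binding protein gene in FPKM on a log axis, with 1 point per library (red and orange for the CNS libraries, dark and light blue for the dLN libraries) and a dashed line at 1 FPKM. The CNS points lie above the dLN points for 9 of the 10 genes, and for Gbp5 the value of CNS replicate 1 lies between those of the dLN libraries.

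Gbp3 and Gbp4 were also called higher in CNS. Gbp3 was at 33.4 and 32.5 FPKM in CNS and at 16.5 and 14.4 FPKM in dLN. The libraries of each tissue lay close together, and the tissues did not overlap. The mean was 2.13-fold higher in CNS, with a log2 ratio of 1.05 (SE 0.10, adjusted p of 0.000648 in limma). Gbp4, whose protein has been described as an inhibitor of IRF7, was at 42.6 and 36.8 FPKM in CNS and at 20.1 and 18.2 FPKM in dLN. Here too the tissues did not overlap. The ratio of means was 2.07, with a log2 ratio of 1.01 (SE 0.11, adjusted p of 0.00103 in limma).

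The 5 members Gbp6, Gbp7, Gbp8, Gbp9 and Gbp10 were each called higher in CNS and had a ratio of mean FPKM of at least 4. A ratio of 4 was not itself tested. Gbp6, Gbp7 and Gbp10 are known from work on the control of intracellular bacteria in macrophages. Gbp6 was at 64.0 and 57.5 FPKM in CNS and at 10.2 and 6.78 FPKM in dLN. The lower CNS library was still far above the higher dLN library, and the dLN libraries lay further apart in proportion than the CNS libraries. The ratio of means was 7.17 and the log2 ratio 2.73 (SE 0.19, adjusted p of 0.000269 in limma).

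Gbp7 was at 42.0 and 38.4 FPKM in CNS and at 6.22 and 4.75 FPKM in dLN. Its tissues did not overlap, and its ratio of means was 7.33, with a log2 ratio of 2.68 (SE 0.14, adjusted p of 0.000131 in limma). Gbp8 was at 17.1 and 15.4 FPKM in CNS and at 1.99 and 2.30 FPKM in dLN. It was low in both dLN libraries, and its ratio of means was 7.59. Its log2 ratio was 2.46 (SE 0.11, adjusted p of 9.94e-05 in limma). Gbp10 was at 19.5 and 16.8 FPKM in CNS and at 3.06 and 1.86 FPKM in dLN. Here dLN replicate 1 was above dLN replicate 2, and both were well under the CNS libraries. The ratio of means was 7.40 and the log2 ratio 2.49 (SE 0.20, adjusted p of 0.000361 in limma). Gbp9 was at 27.1 and 24.1 FPKM in CNS and at 5.52 and 5.04 FPKM in dLN. The libraries of each tissue were close, and the ratio of means was 4.85 with a log2 ratio of 2.08 (SE 0.11, adjusted p of 0.000123 in limma).

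Gbp5, which promotes assembly of the NLRP3 inflammasome in macrophages, was the member tested that was not called. Its CNS libraries read 13.5 and 19.6 FPKM and its dLN libraries 13.9 and 12.4 FPKM. CNS replicate 1 lay within the dLN range and CNS replicate 2 above it, so the tissues overlapped. The ratio of means was 1.26 and the log2 ratio 0.29 (SE 0.19, adjusted p of 0.216 in limma), with a 95% confidence interval from -0.20 to 0.78. This result turned on 1 library. Without CNS replicate 1 the log2 ratio was 0.54 with an adjusted p of 0.0397 in limma, and without CNS replicate 2 it was 0.04 with an adjusted p of 0.800, the lowest and the highest over all alternatives. Gbp5 was not called with libraries rescaled to the same FPKM sum or the same upper quartile (log2 ratios of 0.11 and 0.42).

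Gbp11, a polymorphic pseudogene in the GENCODE annotation, was at 0.740 and 0.794 FPKM in CNS and at 0.135 and 0.236 FPKM in dLN. These values stand for about 39, 43, 6.3 and 13 fragments, so its dLN level rested on few fragments. It was under the minimum for testing in both tissues, although its CNS libraries were above its dLN libraries by a ratio of means of 4.13. With no minimum its log2 ratio was 0.58 (SE 0.064, adjusted p of 0.00589 in limma). The related gene Gbp2b was barely read, at 0.134 and 0.211 FPKM in CNS and at 0 and 0.0515 FPKM in dLN, where 3 fragments or fewer were counted in each library. No fold is given for it.

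**Figure D2:**
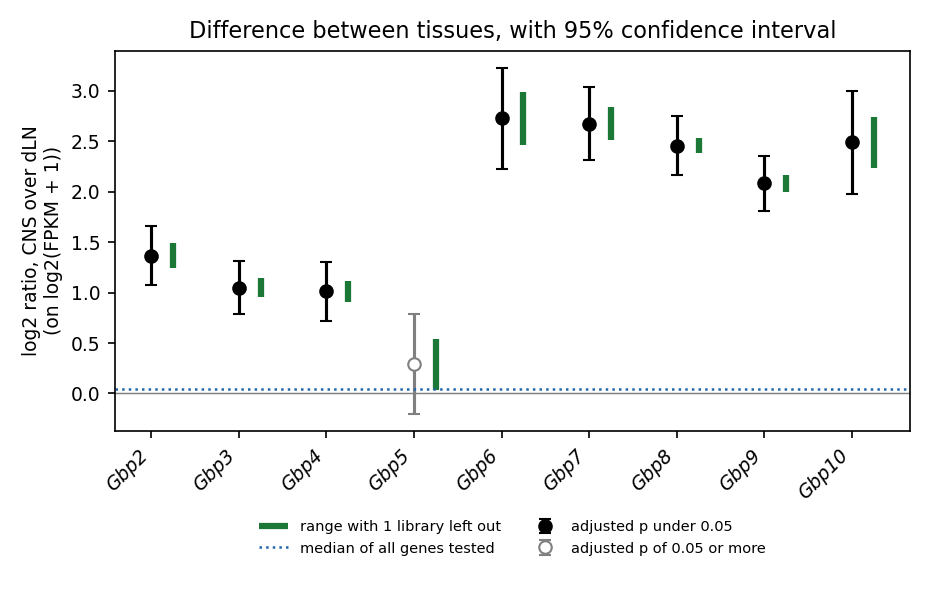
Log2 ratio of CNS over dLN on log2(FPKM + 1) for the 9 members tested, with 95% confidence intervals from limma (filled for an adjusted p under 0.05), the range of the ratio with 1 library left out (green bars) and the median of all 10634 genes (dotted line). Gbp6, Gbp7, Gbp8, Gbp9 and Gbp10 lie above 2, Gbp2, Gbp3 and Gbp4 between 1 and 1.5, and the interval of Gbp5 holds 0.

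Both CNS libraries were above both dLN libraries for 9 of the 10 members and for 8 of the 9 tested, against 45.7% of all genes tested. The family was chosen with earlier results of these data known, so the shares and medians here describe it and are no independent test. The median log2 ratio of the 9 tested members was 2.08, and over all genes tested it was 0.045. With no minimum, the median over the 10 members was 1.72. Of the genes tested, 21% were called with a log2 ratio of at least 1, as were 8 members, and 7.04% with at least 2, as were 5 members. Rescaling the libraries to the same FPKM sum moved the median of all genes by -0.17 and rescaling to the same upper quartile by 0.12. The same 8 members were called higher under both scalings.

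The order of the members by level, compared as FPKM and so per length, was not the same in the tissues. In CNS it ran from Gbp2 over Gbp6, Gbp7, Gbp4, Gbp3, Gbp9, Gbp10, Gbp5 and Gbp8 to Gbp11. The ranges of the libraries overlapped between Gbp7 and Gbp4, between Gbp10 and Gbp5 and between Gbp5 and Gbp8, so these neighbours did not differ beyond their spread. In dLN the order was Gbp2, Gbp4, Gbp3, Gbp5, Gbp6, Gbp7, Gbp9, Gbp10, Gbp8 and Gbp11, with overlapping ranges for Gbp7 and Gbp9 and for Gbp10 and Gbp8. Gbp6 thus came next after Gbp2 in CNS, whereas in dLN Gbp4, Gbp3 and Gbp5 stood between them. The places of Gbp6 and Gbp10 are uncertain, since these genes share much sequence, as given further on.

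Summed over the 10 members, the level was 365 and 367 FPKM in CNS and 123 and 108 FPKM in dLN. The CNS libraries differed by less than the dLN libraries, and the ratio of means was 3.16. The 4 genes on chromosome 3 summed to 194 and 215 FPKM in CNS and to 82.0 and 74.0 FPKM in dLN, a ratio of 2.62. The 6 genes on chromosome 5 summed to 171 and 151 FPKM in CNS and to 40.9 and 34.4 FPKM in dLN, a ratio of 4.28. The chromosome 5 genes thus made up 46.8% and 41.3% of the family sum in CNS and 33.3% and 31.7% in dLN. Neither cluster was uniform, since Gbp7 at 7.33-fold and Gbp5 at 1.26-fold are neighbours on chromosome 3, and Gbp4 at 2.07-fold lies on chromosome 5. The share of Gbp5 was 3.70% and 5.34% in CNS and 11.3% and 11.4% in dLN.

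**Figure D3:**
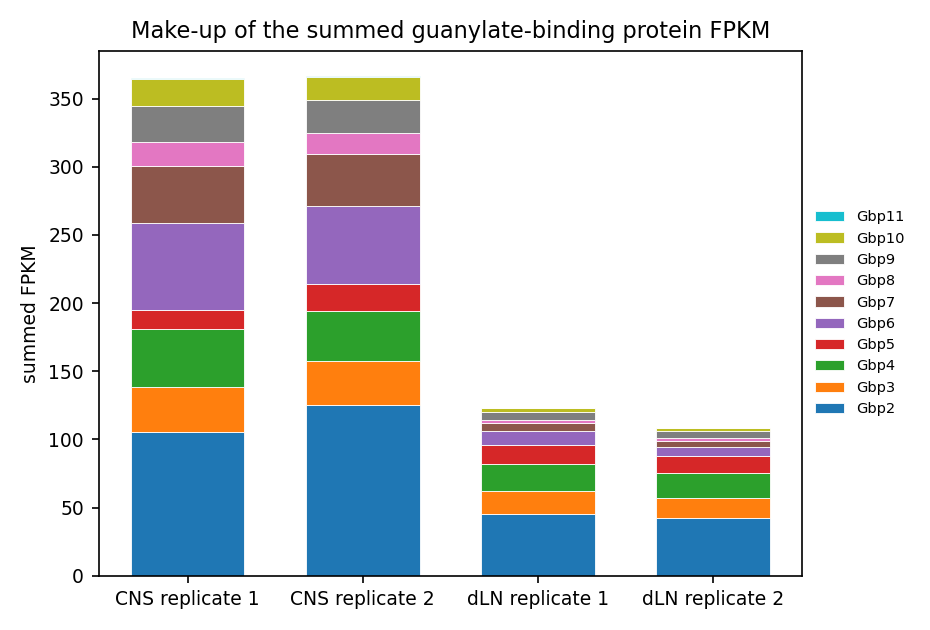
Summed FPKM of the 10 guanylate-binding protein genes in each library, with 1 coloured segment per gene. The CNS bars reach 365 and 367 FPKM and the dLN bars 123 and 108 FPKM, Gbp2 takes the largest segment in each library, and Gbp6 takes 17.5% and 15.7% in CNS and 8.26% and 6.26% in dLN.

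Members of this family resemble each other in sequence, and how the authors' program shared fragments between them is not given in the sources used here. Of all stretches of 50 bases in the Gbp6 transcript, 70.1% also occurred in a transcript of another member, 62.3% in Gbp10. The Gbp6 sequence compared had 2604 bases, whereas the transcript in the tables has 4316, so this share covers a portion of it. For Gbp10 the share was 50.3%, of which most was common with Gbp6 (45.8%). The separate levels of Gbp6 and Gbp10 are therefore uncertain. Their sum depends less on how fragments were split between them, and it was 83.5 and 74.4 FPKM in CNS and 13.2 and 8.64 FPKM in dLN, a ratio of means of 7.22. For the other members the share was 21.2% in Gbp8, 19.2% in Gbp11, 12.1% in Gbp4, 7.48% in Gbp9, 4.13% in Gbp3, 2.28% in Gbp7 and 0% in Gbp2 and Gbp5. In the GENCODE annotation, the gene models of Gbp8 and Gbp9 also reach across Gbp4, and Gm43302 spans Gbp10 and Gbp6.

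A gene that reaches 1 FPKM in CNS and not in dLN is bound to be higher in CNS, so its direction adds nothing to a count of higher calls, and such genes are counted apart in each list. The sort gate could also hold other cells, and CNS replicate 2 stood apart in their markers. The 19 markers of microglia, macrophages and monocytes in the tables summed to 64.3 and 279 FPKM in CNS and to 8.61 and 6.41 FPKM in dLN. Of these, limma called 8 of 13 tested higher in CNS and 0 lower, also at an unadjusted p under 0.05 for the lower ones. Without CNS replicate 1, 13 were called higher, and with either dLN library left out 5 were. Of the 13 tested, 11 reached the minimum in CNS alone, and of the other 2, 1 was called higher with all libraries. The most abundant, Lyz2, was at 3.22 and 92.1 FPKM in CNS and at 0.0621 and 0 FPKM in dLN, and 11 and 13 of the 19 were listed at 0 in the dLN libraries. The 8 neutrophil markers summed to 1.37 FPKM in CNS replicate 1, 225 FPKM in CNS replicate 2 and at most 0.0377 FPKM in dLN. All 8 reached the minimum in CNS alone. Of the 8, limma called 0, and 0 had an unadjusted p under 0.05. Without CNS replicate 1, 8 were called higher, and without CNS replicate 2 or with a pseudocount of 0.1, 2 were. S100a8, the most abundant, was at 101 FPKM in CNS replicate 2 and at 0 in the other libraries. The 11 dendritic-cell genes summed to 42.7 and 587 FPKM in CNS and to 63.7 and 58.2 FPKM in dLN, led by Cd74 at 22.4 and 259 FPKM in CNS and 58.4 and 54.1 FPKM in dLN. Of 9 tested, 6 reached the minimum in CNS alone and 1 in dLN alone. These 7 held all calls, 2 higher and 1 lower in CNS. Xcr1 and Cd74 reached it in both tissues, and limma called 0 of them, with 0 at an unadjusted p under 0.05. The count of higher calls was 7 without CNS replicate 1, 4 without CNS replicate 2 and 1 with either dLN library left out. The count of lower calls was 2 without CNS replicate 2 and 0 with either dLN library left out.

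The CNS libraries were also compared for the guanylate-binding proteins. The median difference of CNS replicate 2 minus replicate 1, in log2 units, was -0.13 over the 10 members, 1.14 over the myeloid markers, 2.49 over the neutrophil markers and 1.61 over the dendritic-cell genes. In CNS replicate 2, 7 of the 10 members were lower than in replicate 1, and Gbp2, Gbp5 and Gbp11 were higher. The difference was 0.24 for Gbp2 and 0.50 for Gbp5, in log2 units. Without CNS replicate 2, 8 members were still called higher, with a median log2 ratio of 2.16. Without that library, 12 of the 13 myeloid markers were called higher and 1 lower. The part of other cells in the levels of single members was not tested.

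**Figure D4:**
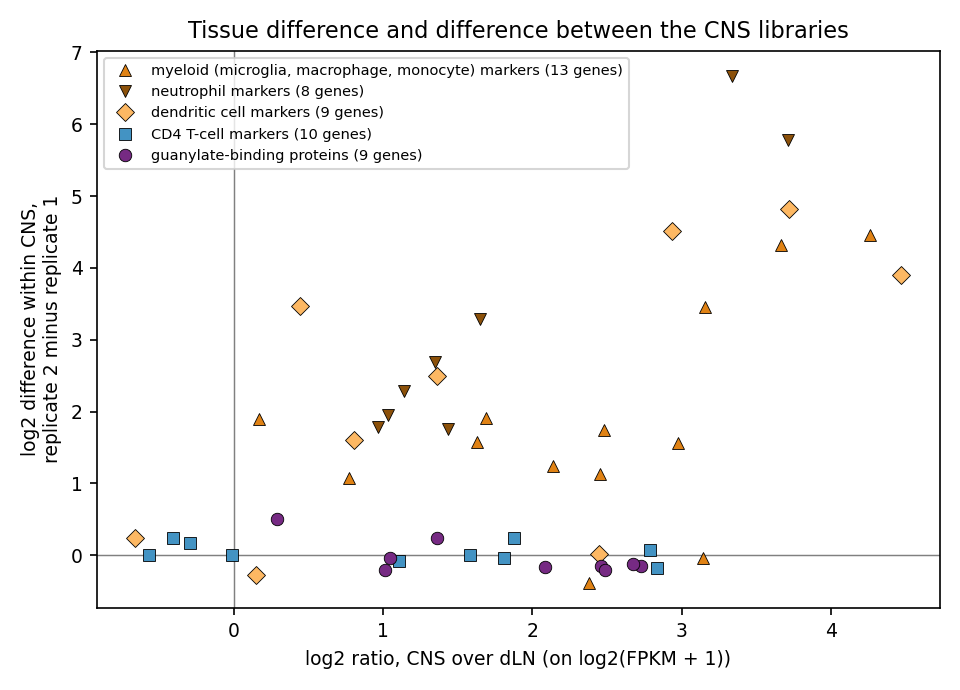
Difference between the CNS libraries (replicate 2 minus replicate 1, log2) against the log2 ratio of CNS over dLN, both on log2(FPKM + 1), with 1 point per gene tested and 1 colour and shape per list. Neutrophil markers and most myeloid and dendritic-cell markers lie far above 0 on the vertical axis, whereas CD4 T-cell markers and guanylate-binding proteins lie near 0, with Gbp5 the highest of the family.

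Markers of the remaining cell types were as follows. Of the 10 CD4 T-cell genes, 6 were called higher in CNS, with Cd3g at a log2 ratio of 2.83, and 3 lower. The lower ones were Cd44, Cd247 and Cd5, with log2 ratios of -0.56, -0.41 and -0.29, and Cd2 was not called (-0.01). With either dLN library left out, Cd5 and Cd247 lost their calls and 1 gene was called lower. Of the 7 B-cell genes, 1 was tested, Cd79b, which reached the minimum in CNS alone and was called higher at 1.14 and 1.47 FPKM in CNS and 0.214 and 0.179 FPKM in dLN. Pax5 was listed at 0 in all 4 libraries. The 8 genes of CD8 T cells and NK cells summed to 8.93 and 13.4 FPKM in CNS and to 3.69 and 3.58 FPKM in dLN, with Cd8b1 the most abundant. Of the 3 tested, Cd8b1 reached the minimum in both tissues and was not called (adjusted p of 0.181 in limma), and the 2 called higher reached it in CNS alone. Klrb1c, one of these, was at 2.53 and 3.22 FPKM in CNS and at 0.0442 and 0 FPKM in dLN. Klra7 was at 1.06 FPKM and Ncr1 at 0.581 FPKM in CNS replicate 2, and Klra1 was listed at 0 in all 4 libraries. The 14 genes of neural and vascular cells summed to 72.0 and 82.4 FPKM in CNS and to 68.1 and 67.7 FPKM in dLN. Most of this was Mbp, at 48.6 and 44.5 FPKM in CNS and 55.5 and 57.7 FPKM in dLN, and 5 of 7 tested were called higher and 1, Mbp, lower. Since 5 of the 7 reached the minimum in CNS alone, the direction of these 5 follows from that minimum. Of the other 2, 1 was called higher and 1 lower. With no minimum, 2 of 14 were called higher and 1 lower. With either dLN library left out 2 were called higher and 0 lower. Mbp also lost its call without CNS replicate 2, with the same upper quartile, without trend and with a replicate block. Of the 14 genes, 8 and 9 were listed at 0 in the dLN libraries. Their part in the family's levels was not tested.

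Interferon-gamma and its receptor act at the head of the pathway. Of the 7 ligand and receptor genes tested, 5 were called higher in CNS and 1 lower, with a median log2 ratio of 0.97. Ifng was at 469 and 693 FPKM in CNS and at 324 and 138 FPKM in dLN. The tissues did not overlap, but the libraries of each tissue lay wide apart. The log2 ratio was 1.43 (SE 0.44, adjusted p of 0.0343 in limma), and this call was not stable. In limma the adjusted p was 0.116 without CNS replicate 1, 0.218 without CNS replicate 2, 0.0686 without dLN replicate 2 and 0.0986 with no minimum level, in a range over alternatives from 0.00675 to 0.218. Without dLN replicate 2 the log2 ratio was 0.81, and without dLN replicate 1 it was 2.04.

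Ifngr1, the ligand-binding chain of the receptor, was at 497 and 471 FPKM in CNS and at 14.7 and 11.0 FPKM in dLN. It was high in both CNS libraries and low in both dLN libraries, with a ratio of means of 37.6 and a log2 ratio of 5.14 (SE 0.15, adjusted p of 8.12e-05 in limma). Ifngr2, the signalling chain, was at 1.32 and 3.14 FPKM in CNS and at 3.41 and 2.83 FPKM in dLN. The tissues overlapped, since CNS replicate 2 lay within the dLN range, and the gene was not called (log2 ratio of -0.41, adjusted p of 0.264 in limma). Without CNS replicate 2 the log2 ratio was -0.83, and without CNS replicate 1 it was 0.0116, so the direction turned on 1 library. Il27ra, a receptor chain for interleukin-27, was called higher with a log2 ratio of 1.44 and the type I interferon receptor gene Ifnar1 with 0.97. Il6st, which encodes the gp130 chain, was called lower with a log2 ratio of -3.06. Among the type I interferon genes, Ifna2 was listed at 0 in all 4 libraries, and Ifnb1 and Ifna4 were read in CNS replicate 2 alone, at 0.40 and 0.205 FPKM.

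Of the 14 signalling kinases and transcription factors, 10 were called higher in CNS and 2 lower, and the median log2 ratio was 1.18. Of the 12 that reached the minimum in both tissues, 9 were called higher and 2 lower. Irf1, a known inducer of guanylate-binding proteins, was at 97.1 and 125 FPKM in CNS and at 43.6 and 35.9 FPKM in dLN. The tissues did not overlap, with a log2 ratio of 1.45 (SE 0.16, adjusted p of 0.00110 in limma). Irf7 was called higher with a log2 ratio of 4.82, Irf9 with 1.94 and Stat2 with 1.85. The kinase gene Jak2 was called lower, at 29.4 and 31.6 FPKM in CNS and 191 and 214 FPKM in dLN, with a log2 ratio of -2.69. Irf8 was called lower with a log2 ratio of -1.12 (adjusted p of 0.0177 in limma). Irf8 had a ratio of -0.70 without CNS replicate 1 and of -1.54 without CNS replicate 2. Its adjusted p was 0.0678 without dLN replicate 1, 0.0811 without dLN replicate 2 and 0.0590 with no minimum level, and it ranged from 0.00465 to 0.0811 over the alternatives in limma.

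**Figure D5:**
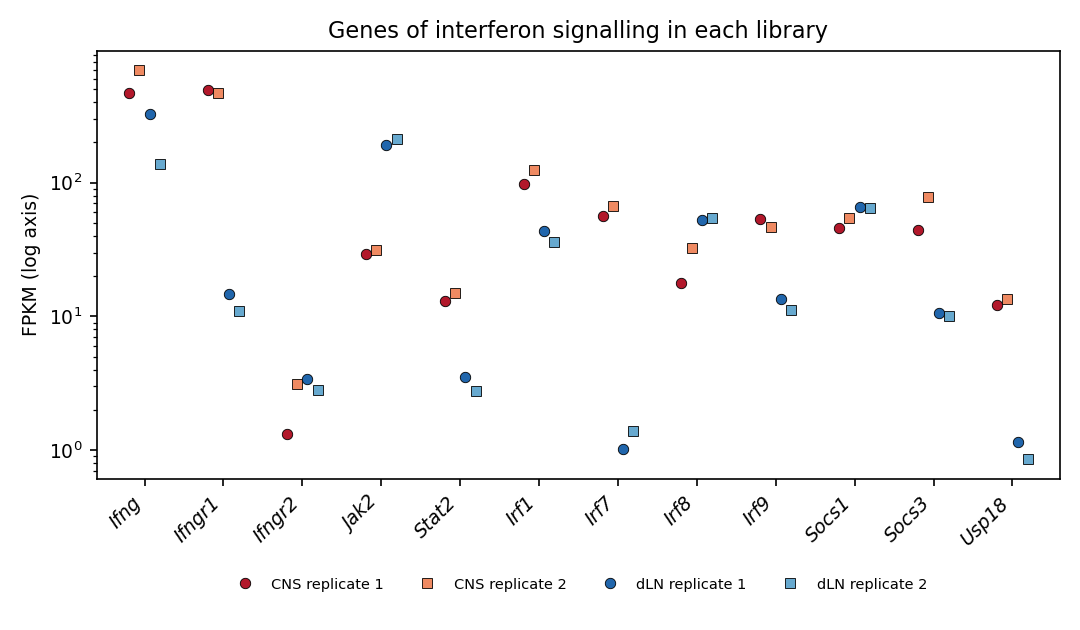
Level of 12 genes of interferon signalling in FPKM on a log axis, with 1 point per library in the colours of the CNS libraries (red, orange) and the dLN libraries (dark and light blue). Ifngr1, Irf7 and Usp18 lie well above in both CNS libraries, Jak2 lies above in both dLN libraries, and the tissues overlap for Ifngr2.

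Of the 7 inhibitors of interferon signalling, 3 were called higher and 3 lower in CNS, against 37.8% and 37.2% of all genes tested. The median log2 ratio was -0.29. Usp18 was higher with a log2 ratio of 2.78, Socs3 with 2.39 and Ptpn6 with 1.72. Socs1, the main feedback inhibitor of interferon-gamma signalling, was at 45.7 and 54.1 FPKM in CNS and at 66.0 and 64.6 FPKM in dLN. It was the lower in both CNS libraries, with a log2 ratio of -0.39 (adjusted p of 0.0247 in limma). The Socs1 call was lost without dLN replicate 1 (adjusted p of 0.109 in limma), without dLN replicate 2 (0.0924), with the same upper quartile (0.0700) and with the highest transcript (0.108), in a range from 0.00343 to 0.109. With the same upper quartile, 0 of the 3 inhibitors called lower kept that call. The count of inhibitors called lower was 1 without dLN replicate 1 and 0 without dLN replicate 2.

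Other targets of interferons were set beside the family. The 12 tested of the 13 immunity-related and very large GTPases, other GTPases that interferons induce, were called higher in CNS. Of these, 3 reached the minimum in CNS alone, and the 9 others had a median log2 ratio of 2.35. The median over the 12 was 1.85. Their ratios were led by 9930111J21Rik1 at 3.62, Tgtp1 at 3.08, Tgtp2 at 3.05 and Gvin1 at 2.51. Tgtp1 and Tgtp2 are near-identical copies, so their separate levels are uncertain. Irgm1 lost its call without CNS replicate 1 (adjusted p of 0.0836 in limma) and without CNS replicate 2 (0.0530), in a range from 0.00369 to 0.0836. Of the 13 tested interferon-gamma targets outside the GTPases, 11 were called higher and 2 lower, with a median log2 ratio of 2.18. Of the 12 that reached the minimum in both tissues, 10 were called higher and 2 lower. Cxcl10, a chemokine, was at 15.6 and 51.7 FPKM in CNS and at 2.60 and 2.57 FPKM in dLN. It was far higher in CNS replicate 2 than in replicate 1, and its log2 ratio of 3.04 was 2.21 without CNS replicate 2 and 3.88 without CNS replicate 1. The antigen processing genes Psmb10, Psmb8 and Tapbp were higher with 2.88, 2.72 and 2.46. Cd274, which encodes the checkpoint ligand PD-L1, was lower with -1.23, and Wars, a tRNA synthetase, with -1.17.

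Targets best known from type I interferon also respond to other interferons in part. Of the 17 tested, 16 were called higher and 1 lower in CNS, but 12 of the 17 reached the minimum in CNS alone. The minimum fixes the direction of these 12, but neither a call nor the size of a ratio. With no minimum, 16 of 18 were called higher and 1 lower, where 8477 of all 16782 genes were called in either direction. With a minimum of 5 FPKM, 12 of 13 were called higher and 1 lower, where 6518 of all 8141 genes were called in either direction. The median over the 17 was a log2 ratio of 3.25. Of the 5 that reached 1 FPKM in both tissues, 4 were called higher and 1 lower, with a median of 2.43. Ifit3 was at 49.1 and 39.9 FPKM in CNS and at 0.194 and 0.188 FPKM in dLN. The log2 ratios were 5.25 for Ifit3, 5.23 for Rtp4, 4.87 for Ifit1 and 4.32 for Oas3. Ifih1, an RNA sensor, was lower with -2.11. Whether any of these lists differed from the guanylate-binding proteins was not tested.

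Some members, among them Gbp2 and Gbp5, end in a motif that is prenylated, which anchors them to membranes. Of the 5 prenylation enzymes, limma called 4 lower in CNS and 0 higher, and the median log2 ratio was -0.66. At an unadjusted p under 0.05, 5 were lower and 0 higher. Fnta, at 7.49 and 8.55 FPKM in CNS and 22.8 and 19.8 FPKM in dLN, encodes the subunit that farnesyl and geranylgeranyl transferases share. It was low in both CNS libraries, with a log2 ratio of -1.31, and Fntb had -1.14. Rce1, which trims the prenylated end, had -0.66, and Pggt1b had -0.44. The Pggt1b call was lost without CNS replicate 2 (adjusted p of 0.114 in limma), without dLN replicate 1 (0.120), without dLN replicate 2 (0.0981), with no minimum (0.0685) and with the same upper quartile (0.0794), in a range from 0.0120 to 0.120.

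The next 14 genes help guanylate-binding proteins reach their targets or act with them in inflammasomes. Their median log2 ratio was 0.82. In CNS, 8 were called higher and 2 lower, against 37.8% and 37.2% of all genes tested and 74.9% in either direction. These calls were all among the 13 genes that reached the minimum in both tissues. Gsdmd, which encodes the pore-forming protein of pyroptosis, was at 28.3 and 28.8 FPKM in CNS and 7.81 and 6.69 FPKM in dLN. It did not overlap, with a log2 ratio of 1.85. The protease gene Casp1 had a log2 ratio of 1.79, Trim21 1.59 and the autophagy gene Gabarapl2 1.53. Casp4, which encodes the mouse sensor of intracellular lipopolysaccharide, was lower with -1.51, and Atg16l1, of the autophagy conjugation machinery, with -1.48.

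Genes known to be induced by PMA and ionomycin were set beside these results, since the methods state this stimulation. Of 16 tested, 13 were called lower and 1 higher in CNS, and the median log2 ratio was -3.16. One of those called lower, Il4, reached the minimum in dLN alone. Il2 was at 18.2 and 38.8 FPKM in CNS and at 5363 and 6176 FPKM in dLN. It was high in both dLN libraries, and so were Il4, Il22 and Il3, with log2 ratios of -7.93, -5.71 and -5.46. Cd69 was the gene called higher, with 1.32. The part of this difference in the levels of the guanylate-binding proteins was not tested.

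The genes outside the family whose 4 values lay nearest to the mean profile of the 9 tested members were Chsy1, Was, Sema4f, Kctd2 and R3hdm4. The measure was the distance over 4 libraries of log2(FPKM + 1) minus the gene's own mean, at 0.0479 for Chsy1 and 0.0579 for R3hdm4, against a median of 1.82 over genes tested outside the family. Chsy1, a chondroitin sulfate synthase, was at 41.2 and 39.6 FPKM in CNS and 11.7 and 9.69 FPKM in dLN. Among the members themselves, Gbp9 lay nearest to their mean profile at 0.311 and Gbp5 farthest at 1.55.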

How the data were processed

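RNA was measured in 4 libraries, 2 from CNS and 2 from dLN. Reads were trimmed and mapped by the authors, who deposited 1 table of FPKM per tissue, with a value for each RefSeq transcript of mm10. The program is not given in the sources used here. The header of the CNS table holds both library names in 1 cell, so its columns were taken in the order of those names. FPKM of 33819 transcripts was summed per symbol, without 565 transcripts that carry none (0.142% to 0.446% of FPKM). In R 4.3.3, limma 3.58.1 (lmFit, eBayes with trend) had tissue as its term and log2(FPKM + 1) of 10634 genes as its values. Python 3.11.15, numpy 2.4.6, pandas 2.3.3 and matplotlib 3.10.9 did the rest. Depth was searched between 13 M and 26 M fragments, on values of up to 3 fragments in transcripts over 800 bases. Stretches of 50 bases shared between transcripts were used in place of a protein comparison, which was not made here.

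The members and lists were chosen with earlier results of these data known. Named by rule are the 10 members, Gbp2b, up to 4 called genes per direction and list with the largest change, Ifng, Ifngr1, Ifngr2, Irf1 and Socs1, the most abundant CNS gene of lists of other cells and genes at 0 there, and the 5 nearest profiles. Irgm1, the sex-linked genes and some markers and type I interferon genes were added after their values were seen. A gene that this rule also takes is not reported here. Alternatives covered the pseudocount, scaling, the highest transcript, other minimum levels, eBayes without trend, a replicate block and leaving out each library.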

Additional observations from a re-analysis of the deposited data

How the results depend on the processing

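With 2 libraries per tissue, leaving 1 out leaves a tissue with a single library, which is then assumed to vary like the other tissue. Of 117 refits of the 9 tested members, 116 kept their direction and side of the threshold, and Gbp5 without CNS replicate 1 became called. The median log2 ratio of the tested members was 2.26 with a pseudocount of 0.1, 1.90 with the same FPKM sum, 2.20 with the same upper quartile and 1.72 with no minimum, where Gbp11 was included. With 1 mismatch allowed, GAS letters were in 4 of 5 member promoters but also in 71.4% of all promoters. ISRE letters were then in 5 of 5 member promoters but also in 35.4% of all promoters. In the 150 bases before the start only, exact ISRE letters were in 3 of 5 member promoters and in 1.59% of all promoters. The replicate numbers share only a number: across genes, the differences between replicates of the tissues had a correlation of 0.0933. With a replicate block, 7828 genes were called in place of 7968, and the call of no tested member changed. Of 416 counts over lists, 376 stayed within 1.5 times of the reported count and 40 did not.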
